A study of Mus musculus with 24 samples.

Results

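Expression of 10 genes of the endoplasmic reticulum (ER) stress response was examined in mouse colon: Hspa5, Hsp90b1, Sdf2l1, Dnajb9, Herpud1, Ern1, Ern2, Xbp1, Atf4 and Ddit3. The genes were chosen by name, and all probes whose transcript accession belonged to 1 of them were taken, which gave 18 probes for the 10 genes out of 22911 gene symbols on the array. RNA from 24 colon samples of C57BL/6J mice had been hybridised to 1-colour Agilent arrays, 4 arrays in each of 6 groups. The groups were males (M), females (F) and ovariectomised females (F(OVX)), each fed for 14 weeks on a diet with 10 kcal% of fat (LFD) or 45 kcal% (HFD). Per the methods, M and F mice had sham surgery. Per the methods, mice were bought at 7 weeks of age and every mouse of every group received azoxymethane at 10 mg/kg, a colon carcinogen, and 3 cycles of 1.5% dextran sulfate sodium, which injures the colon lining. Tissue was taken 75 days after azoxymethane. No group of untreated mice was analysed here, so each value below is a value in carcinogen-treated colon, and the comparison is between diets, sexes and surgery.

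The unfolded protein response is the programme by which cells answer unfolded protein in the ER. Sensors in the ER membrane, among them IRE1 (Ern1, and Ern2 in mucus-secreting epithelium), PERK and ATF6, pass the signal to transcription factors. Active IRE1 splices the mRNA of Xbp1, PERK signalling raises translation of Atf4 and, through it, transcription of Ddit3 (CHOP), and the targets include the ER chaperones Hspa5 (BiP) and Hsp90b1 (GRP94), their cofactors Dnajb9 and Sdf2l1, and Herpud1, a part of ER-associated degradation. Goblet cells, which fold large amounts of mucin, rest on this machinery. The arrays report total mRNA of each gene and give neither the splicing of Xbp1 nor the translation of Atf4.

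Each value below is a quantile-normalized log2 signal of a gene's brightest probe unless another probe is named, and a difference of 1 is a doubling of signal. The share of probes well above background ran from 40.5% to 61.9% over the arrays. In all 10 genes the brightest probe was well above background on 24 of 24 arrays, and the second probe of Dnajb9 on 23. Each sex and surgery class filled 1 slide, with LFD in 1 row and HFD in the other, so sex or surgery cannot be told apart from slide, nor diet from row. The libraries labelled M + LFD replicates 1 and 2 stood apart: Hoxb13, a gene of the hindmost gut, read 2.18 and 5.04 there and 12.58 to 14.79 on the other arrays. All 10 epithelial and all 8 goblet cell markers were well above background on every array. The summed level of the goblet markers was 18.58 to 19.50. In whole tissue, fewer cells of a type and less RNA per cell cannot be told apart.

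Promoter sequence of Hspa5, Herpud1 and Hsp90b1 is shown because these are the members whose promoters hold an ER stress element by sequence. The sequences are those of RefSeq (GRCm38.p6), read 5′ to 3′ on the gene's strand and ending at the base before the annotated start. The Hspa5 stretch lies at chr2:34771940-34772089 (+ strand), that of Herpud1 at chr8:94386279-94386428 (+ strand) and that of Hsp90b1 at chr10:86705445-86705694 (- strand). Capitals mark the ER stress element (ERSE: CCAAT, 9 bases of any kind, CCACG) in Hspa5 and Hsp90b1, and the related ERSE-II (ATTGG, 1 base, CCACG) in Herpud1.
Hspa5: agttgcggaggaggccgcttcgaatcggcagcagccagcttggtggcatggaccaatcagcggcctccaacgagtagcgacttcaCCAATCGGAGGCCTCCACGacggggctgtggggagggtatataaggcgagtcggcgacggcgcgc
Herpud1: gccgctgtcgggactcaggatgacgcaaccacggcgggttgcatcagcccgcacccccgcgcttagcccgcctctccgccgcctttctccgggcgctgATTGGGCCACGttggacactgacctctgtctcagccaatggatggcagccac
Hsp90b1: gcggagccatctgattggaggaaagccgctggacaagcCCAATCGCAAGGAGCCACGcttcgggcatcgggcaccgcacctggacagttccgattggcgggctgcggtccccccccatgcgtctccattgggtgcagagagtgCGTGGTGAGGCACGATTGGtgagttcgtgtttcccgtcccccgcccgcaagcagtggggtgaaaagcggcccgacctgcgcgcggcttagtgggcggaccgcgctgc
The ERSE, known as a site of ATF6 with the CCAAT-binding factor NF-Y, ran from -65 to -47 in Hspa5, and Hsp90b1 held it at -212 to -194 and, on the opposite strand, at -107 to -89. The ERSE-II of Herpud1 ran from -52 to -42, and the ATF4 element TTGCATCA lay at -112 to -105 of the same promoter. Over both strands and 300 bases around the start, the ERSE was found in 39 of 32851 promoters (0.119%), the ERSE-II in 12 (0.0365%), TTGCATCA in 294 (0.895%) and the XBP1 core TGACGTGG, which shares the letters CCACG with both ER stress elements on its other strand, in 222 (0.676%). Of the 9 members in the promoter table, 2 held the ERSE, 1 the ERSE-II, 1 TTGCATCA and 0 TGACGTGG. Among 64 other genes of the pathway in the table, 8 held the ERSE, among them Creld2, Pdia6, Calr, Canx and Dnajc3 of the ER folding machinery and Syvn1 and Derl3 of ER-associated degradation. A match is a run of letters and not evidence of binding.

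The first question was whether HFD changed these genes in each sex and surgery class. A gene was called changed at a fold of at least 1.5 with an unadjusted limma p below 0.05. None of the 10 members was called in males, where 4.3% of the 20515 genes tested were called in either direction. None was called in females, against 1.2% of all genes (264 genes, or 586 with the replicate block), or in OVX females, against 2.19%. In no diet comparison did any gene of the array reach a Benjamini-Hochberg adjusted p below 0.05, while 1250 genes (males), 643 genes (females) and 709 genes (OVX females) had an unadjusted p below 0.05, none of them a member. In all 10 genes the LFD and HFD arrays overlapped within each class. The share of all genes whose diets overlapped was not counted, so this does not set the members apart. The median difference of the members, HFD minus LFD, was 0.06 for males, -0.10 for females and 0.16 for OVX females, beside 0.01, 0.00 and 0.01 over all genes tested. Of the members, 6 stood above 0 for males, 2 for females and 7 for OVX females, beside 51.8%, 49.2% and 52.2% of all genes tested. Markers of plasma cells, a secretory cell type that also depends on XBP1, were lower on HFD in all 7 genes in females (0 called, summed level 14.45 to 15.41 on LFD and 14.20 to 14.57 on HFD) and in 5 of 6 tested in OVX females (1 called). Macrophage markers were lower on HFD in 5 of 5 genes in females (median -0.47) and in OVX females (median -0.35), 0 called in both, smooth muscle markers were higher in 6 of 6 in females (median 0.46, 0 called), and epithelial markers were higher in 9 of 10 in OVX females (median 0.24, 0 called). In males the epithelial markers Cdx2 (-1.77) and Slc26a3 (1.1) were called, while 5 of 10 epithelial markers were higher on HFD and 5 lower. Hoxd13, which marks position along the gut, was called in males too (4.75). Ttr, chosen as a liver marker, was called in males (2.19) and in OVX females (-0.95). Goblet cell markers were higher on HFD in 6 of 8 in OVX females, with Spdef called (0.76). The part of these cell types and markers in the member values was not tested. With arrays scaled to their 75th percentile the median of the members in females turned to 0.09, while it was 0.12 for males and 0.14 for OVX females.

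**Figure D1:**
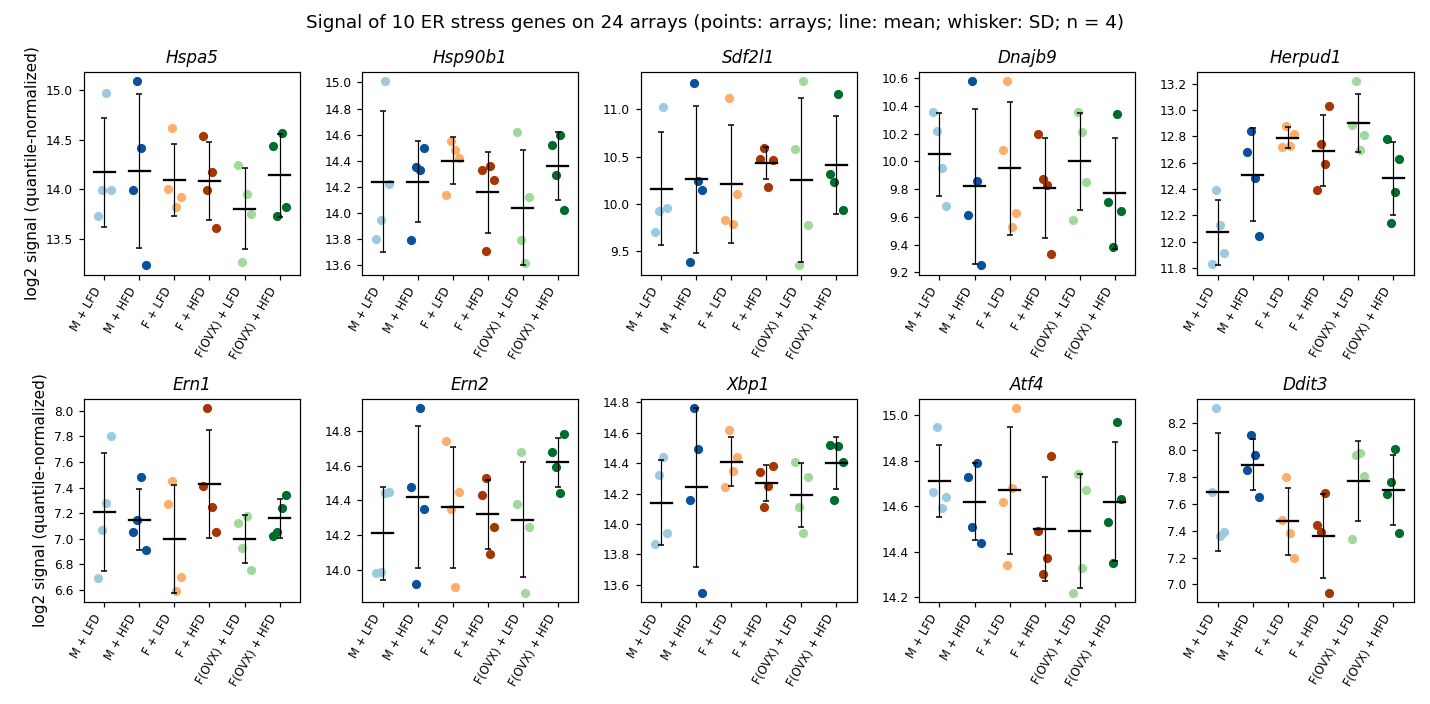
Quantile-normalized log2 signal (vertical axes, 1 range per gene) of the brightest probe of each gene on every array of the 6 groups (horizontal axis), with the mean as a line and the SD as whiskers, n = 4 per group. The diets overlap in every gene and class. The M + LFD arrays of Herpud1 lie between 11.83 and 12.39, below all F + LFD and F(OVX) + LFD arrays. On the second Herpud1 probe, not shown, these groups overlap.

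Hspa5 encodes BiP, the main ER chaperone of the HSP70 family, which also holds the sensors inactive. Its signal was 13.73, 13.99, 14.97 and 13.99 in M + LFD and 13.99, 15.09, 14.41 and 13.23 in M + HFD. It was 14, 14.62, 13.82 and 13.92 in F + LFD and 14.54, 13.99, 14.17 and 13.61 in F + HFD. Among F(OVX) + LFD mice it was 14.24, 13.26, 13.95 and 13.75 and among F(OVX) + HFD mice 14.43, 13.73, 14.57 and 13.82. The groups overlapped throughout, and M + HFD alone spanned 1.86 on the log2 scale, a 3.64-fold range between mice of 1 group. The diet difference was 0.01 (SE 0.41) in males, -0.02 (SE 0.25) in females and 0.34 (SE 0.27) in OVX females. Its other 2 probes gave 0.42 and 0.50 in OVX females and 0.00 and 0.05 in males, and neither was called. Both followed the brightest probe from mouse to mouse, with r of 0.94 and 0.96 over the 24 arrays.

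Hsp90b1, the ER member of the HSP90 family, ran from 13.62 to 15.01 over all arrays. Its diet difference was 0.00 (SE 0.28) in males, -0.23 (SE 0.18) in females and 0.32 (SE 0.24) in OVX females. Leaving out 1 F(OVX) + LFD array, replicate 1 at 14.62, brought the OVX minus F difference of its diet effects from 0.56 to 0.75, past both thresholds.

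Sdf2l1, a cofactor of BiP that helps to keep proteins soluble, varied most of the 10 between mice of a group. It read 9.70, 9.92, 11.03 and 9.96 in M + LFD and 9.39, 11.28, 10.24 and 10.15 in M + HFD. It read 9.83, 11.12, 9.79 and 10.11 in F + LFD and 10.48, 10.59, 10.18 and 10.46 in F + HFD. It read 10.58, 9.35, 11.30 and 9.78 in F(OVX) + LFD and 10.32, 10.23, 11.16 and 9.94 in F(OVX) + HFD. In 5 of the groups a single array stood above 11 and the others at or below 10.58, whereas the F + HFD arrays lay close together. The diet difference was 0.11 (SE 0.43), 0.21 (SE 0.29) and 0.16 (SE 0.43) in males, females and OVX females, each smaller than its SE. Dnajb9 (ERdj4), a J-domain cofactor of BiP, differed by -0.23 (SE 0.29) in males, -0.15 (SE 0.27) in females and -0.23 (SE 0.25) in OVX females, each within the spread between mice. Its second, dimmer probe gave -0.44 (SE 0.22) in males, 0.25 (SE 0.49) in females and -0.28 (SE 0.32) in OVX females. The sign in females was thus the opposite, and the probe was not called.

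**Figure D2:**
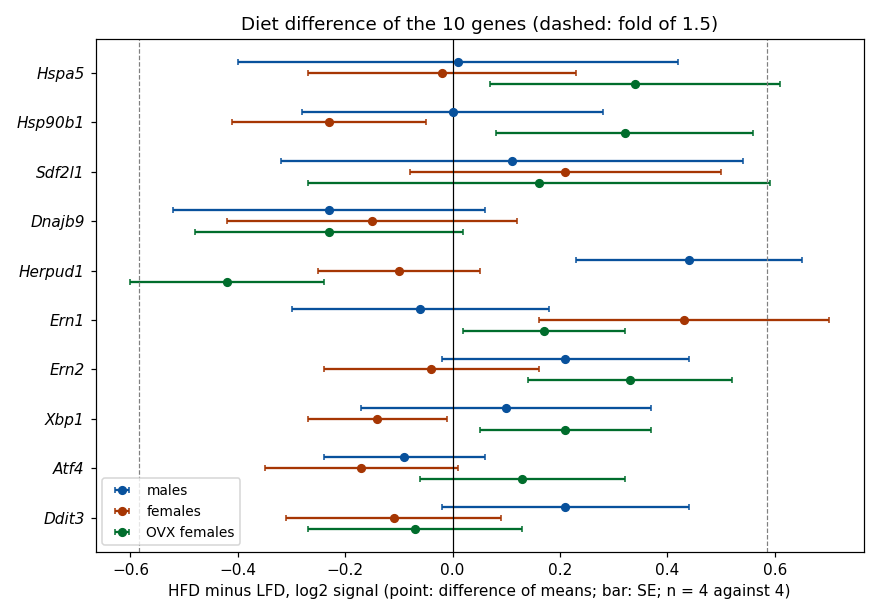
Difference in mean log2 signal between HFD and LFD (horizontal axis) for each gene in males, females and OVX females, with the SE from the limma fit as bars (n = 4 against 4) and dashed lines at a fold of 1.5. All 30 points lie between the dashed lines, from -0.42 (Herpud1, OVX females) to 0.44 (Herpud1, males).

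Herpud1, an ER membrane protein of the degradation machinery, showed both the highest and the lowest of the 30 diet differences. In males it read 11.83, 12.39, 12.13 and 11.91 on LFD and 12.68, 12.84, 12.48 and 12.04 on HFD. In females it read 12.72, 12.88, 12.73 and 12.82 on LFD and 12.39, 12.74, 12.59 and 13.03 on HFD. In OVX females it read 12.89, 13.22, 12.70 and 12.81 on LFD and 12.78, 12.14, 12.38 and 12.63 on HFD. In males 3 of 4 HFD arrays lay above every LFD array, in OVX females 3 of 4 HFD arrays lay below every LFD array, and in females the HFD arrays lay on both sides of the LFD arrays. The diet difference was 0.44 in males (SE 0.21, exact permutation p = 0.114), -0.10 in females (SE 0.15, exact permutation p = 0.571) and -0.42 in OVX females (SE 0.18, exact permutation p = 0.0571), all two-sided, where 4 against 4 arrays allow no p below 0.0286. Leaving out M + HFD replicate 4, the lowest HFD array, brought the difference in males to 0.60 with an unadjusted limma p of 0.0129, past both thresholds.

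The second Herpud1 probe gave the same value in males but not in OVX females. Its difference was 0.44 (SE 0.21) in males, -0.08 (SE 0.24) in females and -0.02 (SE 0.17) in OVX females. Over the 24 arrays, with group means removed, it followed the brightest probe with r = 0.71.

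Ern1 encodes the IRE1 found in most cells and ran from 6.59 to 8.02. Its diet difference was -0.06 (SE 0.24) in males, 0.43 (SE 0.27) in females and 0.17 (SE 0.15) in OVX females. The female value rested on F + HFD arrays at 7.41, 8.02, 7.25 and 7.05 against F + LFD arrays at 7.27, 7.45, 6.59 and 6.70. The arrays of both diets overlapped (exact permutation p = 0.257). Ern2, the epithelial IRE1 of goblet cells, differed by 0.21 (SE 0.23), -0.04 (SE 0.20) and 0.33 (SE 0.19). In F(OVX) + HFD its 4 arrays lay at 14.68, 14.59, 14.44 and 14.78, and in F(OVX) + LFD at 14.38, 14.68, 13.87 and 14.25. Only the LFD array at 14.68 reached into the HFD range, and the second Ern2 probe differed by 0.43 (SE 0.24).

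Xbp1, the transcription factor made active by IRE1, differed by 0.10 (SE 0.27) in males, -0.14 (SE 0.13) in females and 0.21 (SE 0.16) in OVX females. Its other 2 probes gave differences of the same sign in each class, 0.18 and 0.09 for males, -0.33 and -0.39 for females and 0.32 and 0.33 for OVX females. Neither was called. Atf4, the transcription factor of the PERK arm, differed by -0.09 (SE 0.15), -0.17 (SE 0.18) and 0.13 (SE 0.19). Its second probe followed the first with r of 0.31 and had the opposite sign in males (0.11) and OVX females (-0.06). Ddit3, which encodes the pro-apoptotic factor CHOP, differed by 0.21 (SE 0.23), -0.11 (SE 0.20) and -0.07 (SE 0.20).

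Averaged over the 3 classes, the diet differences of the members ran from -0.20 for Dnajb9 (SE 0.17) to 0.18 for Ern1 (SE 0.14). None was called, against 0.773% of 22383 genes.

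The next comparison asked whether the diet difference itself differed between the classes, from a fit over all 24 arrays. The comparisons share arrays, so their values are not independent of each other. Males minus females, none of the members was called, against 2.95% of all genes, and Herpud1 had the highest value, 0.54 (SE 0.26), with an unadjusted limma p of 0.0494 and a fold of 1.46, under the threshold. Ern1 had the lowest, -0.50 (SE 0.33). This count turned on single arrays: Herpud1 passed both thresholds without M + LFD replicate 2 (0.65), without M + HFD replicate 4 (0.70) and without F + HFD replicate 4 (0.66). Without both M + LFD arrays low in Hoxb13, Ddit3 (0.63) and Ern1 (-0.82) passed instead and Herpud1, at 0.59, did not. OVX females minus females, none was called, against 1.52%, and the values ran from -0.32 for Herpud1 (SE 0.26) to 0.56 for Hsp90b1 (SE 0.35). Markers moved in both. Hoxb13 (5.38) and Ttr (2.04) were called in males minus females. There all 5 macrophage and all 7 plasma cell markers lay above 0 and all 6 smooth muscle markers below 0. In OVX females minus females all 10 epithelial and all 6 smooth muscle markers lay above 0, and Sdc1 (0.66), a plasma cell marker, was called. The part of these markers in the member values was not tested.

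Males minus OVX females, 1 of 10 members was called, against 6.16% of all genes, so that the share lies near the background. The gene was Herpud1, with a difference of 0.86 (SE 0.26), a fold of 1.82, an unadjusted limma p of 0.00346 and an adjusted p of 0.562. Leaving out each array in turn gave 0.75 to 1.02, and without both M + LFD arrays low in Hoxb13 it was 0.91. The second probe gave 0.46 (SE 0.30) with an unadjusted limma p of 0.141 and was not called. Smooth muscle markers moved in OVX females too: all 6 were higher on HFD and 4 were called, with summed levels of 15.36 to 16.57 on LFD and 16.47 to 17.60 on HFD. In males the summed levels were 16.18 to 16.83 and 15.40 to 17.06. In males minus OVX females itself all 6 had values below 0 (median -0.83) and 0 were called, while the 5 macrophage markers had values above 0 (median 0.48, 0 called). Other markers called there were Hoxd13 (7.17) and Hoxb13 (6.26), which mark position along the gut, the epithelial Cdx2 (-2.93) and Car1 (-2.46), and the goblet cell genes Muc2 (-0.71) and Agr2 (-0.72). Ttr (3.15), chosen as a liver marker but well above background on every array, was called too. The part of these markers in the Herpud1 values was not tested.

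Across diets, males were compared with females and OVX females with females. No member was called in either, against 5.57% and 2.15% of all genes. For Herpud1 males minus females was -0.45 (SE 0.13, unadjusted limma p of 0.00246, adjusted p = 0.0696), a fold of 1.37, under the threshold. All 4 M + LFD arrays, 11.83 to 12.39, lay below all F + LFD arrays, 12.72 to 12.88, while the HFD arrays overlapped, at 12.04 to 12.84 and 12.39 to 13.03. The second probe gave -0.17 (SE 0.15), with an unadjusted limma p of 0.273. On that probe the M + LFD arrays, 9.81 to 10.65, overlapped the F + LFD arrays, 10.35 to 11.14. The share of all genes with such a separation was not counted. By group mean the brightest probe was ordered from M + LFD at 12.07 through F(OVX) + HFD at 12.48, M + HFD at 12.51, F + HFD at 12.69 and F + LFD at 12.79 to F(OVX) + LFD at 12.90. Neighbours in this order overlapped in their arrays. For Ddit3 the difference from females was 0.38 in males (SE 0.15, unadjusted limma p of 0.0211, adjusted p = 0.191) and 0.32 in OVX females (SE 0.15, unadjusted limma p of 0.0437, adjusted p = 0.802), both under a fold of 1.5. Its arrays ran from 7.36 to 8.31 in males, 6.94 to 7.80 in females and 7.34 to 8.01 in OVX females. Both differences share the female arrays, and each class lies on a slide of its own. Markers differed too. Males had all 10 epithelial markers higher than females (median 0.29, 0 called), and Hoxb13 (-2.58) and Hoxa13 (-1.37) called lower. Plasma cell markers were lower there in 5 of 7 (median -0.66, 0 called). OVX females had all 6 smooth muscle markers lower than females (3 called) and 6 of 7 plasma cell markers lower (2 called). The part of these markers in both genes was not tested.

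For 5 members the pooled SD between mice within groups exceeded the whole range of the 6 group means: Sdf2l1 (range 0.27), Hspa5 (0.38), Dnajb9 (0.29), Xbp1 (0.27) and Atf4 (0.22). In Herpud1 the range of group means was 0.84. That SD was 0.63 for Sdf2l1, 0.51 for Hspa5, 0.42 for Dnajb9, 0.36 for Hsp90b1, 0.34 for Ern1, 0.30 for Ern2 and Ddit3, 0.28 for Xbp1, 0.26 for Herpud1 and 0.23 for Atf4, beside a median of 0.35 over 22383 genes. The chaperones and cofactors are the 4 members above that median. Sdf2l1 spanned 3.87-fold among the F(OVX) + LFD arrays and 3.73-fold among the M + HFD arrays.

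Members were next compared from mouse to mouse. After the mean of each group was taken out, 5 of 45 pairs of members (11.1%) had r above 0.5 over the 24 arrays, which share slides, scans and depth, beside 7.54% of all pairs among 11879 genes. Hspa5 and Xbp1 had r = 0.78 (Spearman rho = 0.69), Ddit3 and Dnajb9 r = 0.71 (rho = 0.76), Hspa5 and Sdf2l1 r = 0.72 (rho = 0.70), Xbp1 and Herpud1 r = 0.64 (rho = 0.57) and Hspa5 and Dnajb9 r = 0.54 (rho = 0.48). Without the 2 arrays farthest from the median of the first gene these were 0.69, 0.75, 0.59, 0.43 and 0.51. Atf4 had r of -0.21 with Hspa5 and -0.33 with Sdf2l1 and reached 0.36 at most, with Herpud1, and the median over the 45 pairs was 0.10. Ern1 and Ern2, the 2 forms of IRE1, had r = 0.48 (rho = 0.54).

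**Figure D3:**
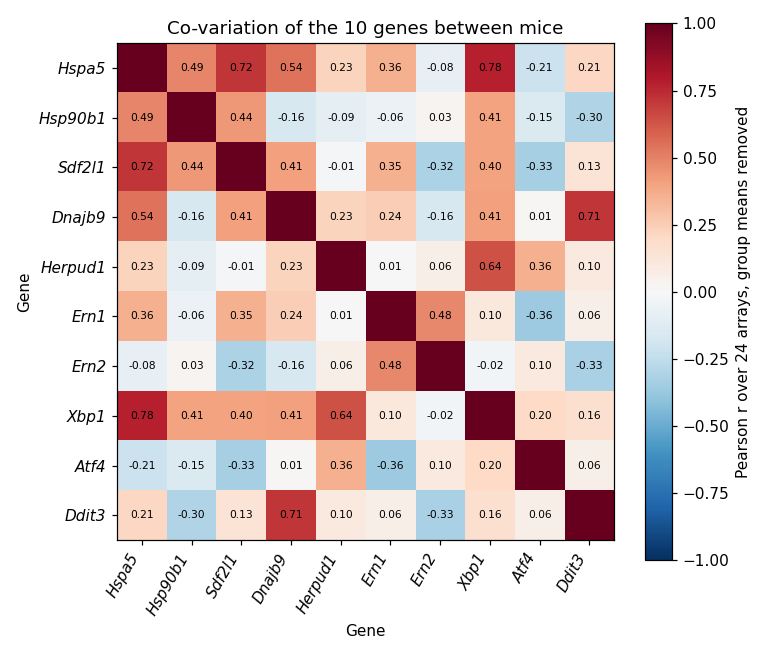
Pearson r between the 10 genes over 24 arrays after the mean of each group was removed, with genes on both axes and r as colour and number. The highest value is 0.78 (Hspa5 and Xbp1) and the lowest -0.36 (Atf4 and Ern1).

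Of 11879 genes with a symbol that were well above background on every array, those most like each member were then found by the same r. For Hspa5 the first was Creld2, an ER protein with disulfide isomerase activity (r = 0.95, and 0.92 without the 2 farthest arrays), followed by Fkbp4 (0.92) and Mogs (0.92), the glucosidase that starts trimming of N-glycans. For Sdf2l1 the first was Manf, a secreted ER stress protein (0.91, and 0.89 without 2 arrays), followed by Pold2 (0.91) and Mrps25 (0.90). For Hsp90b1 it was Pdia6, a protein disulfide isomerase (0.89, and 0.83 without 2 arrays), followed by Morf4l2 (0.85) and Psmd2 (0.84). These 3 partners are genes of the ER folding list, and Creld2 and Pdia6 are among the 8 whose promoters hold the ERSE. For the other members the first gene was Dhx38 for Xbp1 (0.92), Depdc5 for Ern1 (0.84), Fam189a1 for Ern2 (0.84), Ube2j2 for Atf4 (0.82), Iba57 for Dnajb9 (0.82), Hrh1 for Ddit3 (0.79) and Tmco4 for Herpud1 (0.76). The second for Ern1 was Creb3l1 (0.82), an ER-bound transcription factor.

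The array values of Creld2 follow those of Hspa5 given above. Creld2 read 12.61, 12.93, 14.36 and 13.10 in M + LFD and 13.09, 14.49, 13.88 and 12.50 in M + HFD. It read 13.01, 14.24, 13.10 and 13.33 in F + LFD and 13.70, 13.12, 13.56 and 13.25 in F + HFD. It read 13.53, 12.46, 13.45 and 12.87 in F(OVX) + LFD and 13.52, 13.06, 14.12 and 13.05 in F(OVX) + HFD. The highest array of Creld2 was the highest array of Hspa5 in all 6 groups. Over the 19 genes of ER chaperones and folding, the median r with Hspa5 was 0.59, from 0.05 (Ppib) to 0.95, and 12 of the 19 were above 0.5. Over the 23 genes of ER-associated degradation and translocation the median was 0.53, with 14 above 0.5, over the 23 measured genes of the PERK, ATF4 and CHOP branch 0.04, with 5 above 0.5, and over the 12 sensors and membrane-bound factors 0.31, with 3 above 0.5. Over all 11878 other genes it was 0.00, with 1520 (12.8%) above 0.5.

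**Figure D4:**
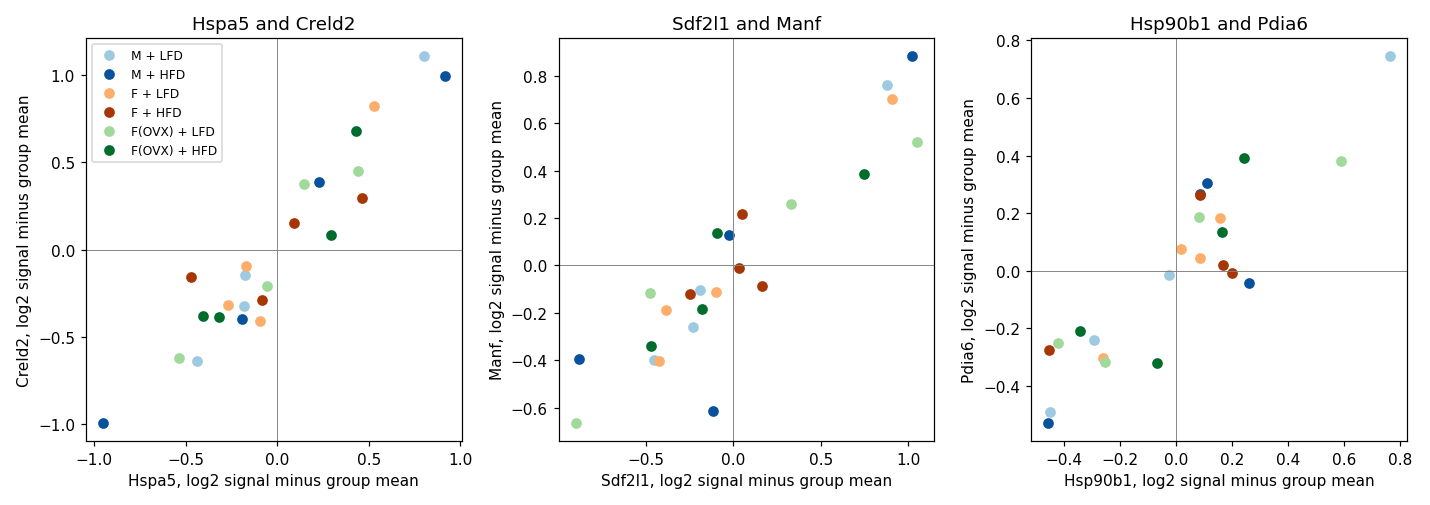
Log2 signal minus the group mean on 24 arrays for Hspa5 and Creld2, Sdf2l1 and Manf, and Hsp90b1 and Pdia6 (first gene on the horizontal axis, second on the vertical), coloured by group. The points run along a rising line in each panel, with r of 0.95, 0.91 and 0.89, and both ends hold arrays of several groups.

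Sdf2l1 also moved with a quality measure of the arrays. Its highest array was the array with the fewest probes well above background in 6 of 6 groups, and with group means removed r was -0.68 (rho = -0.58), or -0.54 without the 2 arrays farthest in that share. In the limma fit across all genes its signal fell by 0.74 (SE 0.19) on the log2 scale for each 10 percentage points more of probes above background, with an adjusted p of 0.0321. It was the 1 member with such a slope, where 2.18% of 22383 genes (489 genes) had a negative slope at an adjusted p below 0.05. For Hspa5 the slope was -0.34 (SE 0.19, adjusted p = 0.266) and for Ern1 -0.28 (SE 0.12, adjusted p = 0.155). With the share as a covariate the diet difference of Sdf2l1 was -0.13 in males and -0.10 in females. With the slope on the share removed, r between Hspa5 and Creld2 was 0.95, between Sdf2l1 and Manf 0.87, and between Hspa5 and Sdf2l1 0.67. The median r with Hspa5 was then 0.54 over ER chaperones and folding, with 12 above 0.5. Over ER-associated degradation and translocation it fell from 0.53 to 0.41, with 10 above 0.5 instead of 14. It was 0.02 over the PERK, ATF4 and CHOP branch (4 above 0.5) and 0.28 over the sensors and membrane-bound factors (2 above 0.5). Over all other genes it was 0.01, with 1286 above 0.5.

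**Figure D5:**
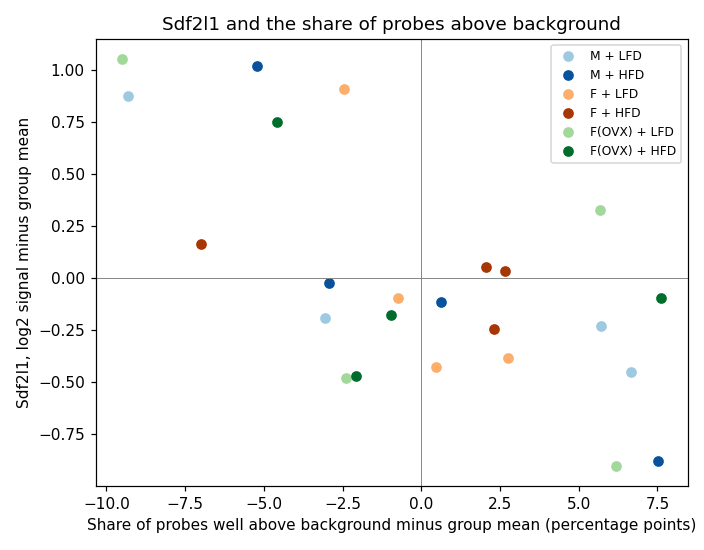
Log2 signal of Sdf2l1 minus its group mean (vertical axis) against the share of probes well above background minus its group mean (horizontal axis, percentage points) on 24 arrays, coloured by group. In each of the 6 groups the array farthest to the left is the highest, and r over the arrays is -0.68.

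The wider pathway was read from 4 lists. Of 19 genes of ER chaperones and folding none was called in any diet comparison, and the median difference was 0.06 for males, -0.01 for females and 0.20 for OVX females. There 16 of 19 were higher on HFD, beside 52.2% of all genes tested. Many of these genes varied together between mice, so their signs are not independent. Of 23 genes of ER-associated degradation and translocation none was called in males (median -0.06) or females (-0.05). In OVX females (median 0.11) 1 was called, 4.35% beside 2.19% of all genes. That gene was Dnajc10, an ER disulfide reductase, at 11.36, 10.47, 11.10 and 10.77 on LFD and 11.14, 11.95, 11.69 and 11.33 on HFD. It differed by 0.61 (SE 0.24, adjusted p = 1), the diets overlapped (exact permutation p = 0.0857), and the call was lost under the replicate block, the methods' t-test and the share of probes above background as a covariate, and without any of 4 single arrays, F(OVX) + LFD replicates 2 and 4 and F(OVX) + HFD replicates 2 and 3. Of 12 sensors and membrane-bound factors 1 was called in males, 8.33% beside 4.3% of all genes. This was Creb3l2, a relative of ATF6, at 0.79 (SE 0.34, adjusted p = 0.801). Its arrays ran from 5.71 to 6.72 on LFD and from 6.37 to 7.66 on HFD (exact permutation p = 0.114), and without both arrays low in Hoxb13 the difference was 0.32. That call was lost with 75th percentile scaling, normexp, no filter, the replicate block and the methods' t-test, and without any of 5 single arrays, M + LFD replicates 1 and 2 and M + HFD replicates 1, 2 and 3.

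In the PERK, ATF4 and CHOP branch 1 of 23 genes tested was called in males (median -0.09). That is 4.35% beside 4.3% of all genes, so that the share lies near the background. None of 24 was called in females (median 0.03) and none of 24 in OVX females (median 0.04). The gene called in males was Gdf15, a secreted stress cytokine known as a target of ATF4 and CHOP. It read 7.22, 7.03, 7.47 and 8.05 in M + LFD and 9.62, 9.44, 8.25 and 8.69 in M + HFD. All 4 HFD arrays lay above all LFD arrays. The difference was 1.56 (SE 0.34, adjusted p = 0.801; exact permutation p = 0.0286, the smallest that 4 against 4 arrays can give), and leaving out each array in turn gave 1.35 to 1.80. In females Gdf15 read 7.67, 8.24, 8.08 and 8.62 on LFD and 7.78, 8.52, 8.99 and 8.92 on HFD, and in OVX females 8.43, 10.15, 8.73 and 8.25 on LFD and 8.95, 8.03, 9.26 and 9.0 on HFD, with overlap in both. Averaged over the classes Gdf15 was the 1 gene of the 4 lists called, where 0.773% of all genes were called. Its value there was 0.63 (SE 0.23, adjusted p = 0.984). The call was lost with normexp (0.49), without both arrays low in Hoxb13 (0.52) and without any of 8 single arrays (0.55 to 0.58). On HFD these were M replicates 1 and 2, F replicate 3 and F(OVX) replicate 3, and on LFD M replicate 2, F replicate 1 and F(OVX) replicates 1 and 4. Its diet difference in males exceeded that in OVX females by 1.64 (SE 0.56, adjusted p = 0.562), and without both M + LFD arrays low in Hoxb13 that call was lost (1.32). Between sexes, Slc7a11, the cystine transporter under ATF4, was called lower in males than in females by -0.97 (SE 0.30, adjusted p = 0.0908), or -0.30 and not called with normexp background correction. Slc7a11 was the 1 gene called of 24 tested in the branch, 4.17% beside 5.57% of all genes, so that the share does not exceed the background. Sel1l, the adaptor of the degradation ligase, was the only gene of the 4 lists with an adjusted p below 0.05 in any comparison, 1 of 78 tested (1.28%) beside 2.6% of all genes in males against females. It was higher in males by 0.48 (SE 0.12, adjusted p = 0.0378), a fold of 1.39, and was named after its value was seen. Sel1l was not followed through the other settings, and sex cannot be told apart from slide. Without both M + LFD arrays low in Hoxb13 the genes with an adjusted p below 0.05 in that comparison went from 581 to 197.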

How the data were processed

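Gene expression was measured in 24 mouse colon samples on Agilent 1-colour arrays. The authors deposited the scanner output of Agilent Feature Extraction 11.0.1.1, per the file headers, whose processed signal is an intensity after background subtraction, with flags (other columns) for outlier spots and for signal well above background. The array annotation names the build mm9. The authors' methods give 5 animals per group for the arrays, the labels 4 samples, and nothing says that samples shared an animal; p-values then measure the spread between these samples.

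Here log2 processed signals were quantile-normalized over the 24 arrays, outlier spots left out, and spots of a probe averaged. Probes were named by accession through RefSeq (58.3% of 56605 probes matched a symbol), and the brightest probe stood for a gene. Genes well above background on all 4 arrays of a compared group were tested with limma 3.58.1 in R 4.3.3. The call, a fold of 1.5 with p below 0.05, is that of the methods, and Benjamini-Hochberg values are beside it. The fits were tested on simulated data. Promoter motifs were searched in RefSeq windows of 250 bases before to 50 after the start. Members, lists and markers were chosen with earlier results of these data known. All members are named, as is every listed gene called in a comparison described and the genes most like each member.

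Whether the shared replicate numbers, which are slide columns, pair LFD and HFD samples was checked by correlating same-numbered deviations from the group means: r was 0.22 to 0.51 in females, all above 0.1, and -0.25 to 0.09 in males and -0.06 to 0.32 in OVX females. Alternatives were 75th percentile scaling, normexp with an offset of 50, no filter, every probe, the replicate block, the methods' t-test, leaving out arrays, and, added after seeing the data, the share of probes well above background as a covariate. The number of arrays limits the precision.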

Additional observations from a re-analysis of the deposited data

Results flagged for a closer look

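The diet difference of Herpud1 differed between males and OVX females by 0.86 and between males and females by 0.54 on the log2 scale, the second under a fold of 1.5, each by a test of the difference itself (unadjusted p below 0.05, adjusted p of 0.562 and 0.975 in limma). In the same way, among the other pathway genes, the diet difference in males exceeded that in females for Atf3, a stress-induced transcription factor, by 1.83, and that in OVX females for Gdf15 by 1.64. It was below that in OVX females for Nupr1 by -1.61, Dnajc10 by -1.10, Tmbim6, an ER membrane protein that restrains cell death, by -0.88, the disulfide isomerase Txndc5 by -0.72 and the amino acid sensor kinase Eif2ak4 by -0.65. In OVX females it exceeded that in females for Tmbim6 by 0.79 and for Eif2ak4 by 0.59. None had an adjusted p below 0.05. In males minus OVX females the share called was 5.26% (folding), 4.35% (degradation), 12.5% (PERK branch) and 8.33% (sensors), beside 6.16% of all genes. In males minus females it was 4.17% of the PERK branch and 0% of the other lists, beside 2.95%. In OVX females minus females it was 4.17% of the PERK branch, 8.33% of sensors and 0% of the other lists, beside 1.52%. Leaving out each array in turn, the calls of Gdf15 (1.21 to 1.88) and of Herpud1 against OVX females (0.75 to 1.02) were kept. The call of Txndc5 was lost without M + HFD replicate 1 (-0.55) and with 75th percentile scaling (-0.68), and that of Atf3 without M + LFD 3 (1.48), M + HFD 1 (1.46), M + HFD 3 (1.61) or F + HFD 3 (1.60). That of Dnajc10 was lost without M + LFD 3 (-0.87), M + HFD 1 (-0.89), F(OVX) + LFD 2 (-0.95) or F(OVX) + HFD 2 (-0.96). The calls against OVX females were lost for Tmbim6 without M + LFD 1, M + LFD 2, M + HFD 1 or F(OVX) + LFD 3 (-0.79 to -0.61), for Eif2ak4 without M + LFD 1, M + HFD 1, M + HFD 2 or F(OVX) + LFD 3 (-0.56 to -0.46) and for Nupr1 without any of 8 of the arrays, the most without M + LFD 2 (-1.20). Between OVX females and females 7 arrays ended the call of Tmbim6 and 9 that of Eif2ak4, both the most by F(OVX) + LFD 3 (0.52 and 0.41). With the replicate block both calls of Tmbim6 were lost. With 75th percentile scaling that of Nupr1 (-1.46) and that of Tmbim6 against females (0.63) were lost, with normexp both of Eif2ak4 (-0.58 and 0.54), and with the share of probes above background as a covariate those of Tmbim6 (0.65) and Eif2ak4 (0.51) against females. Without both M + LFD arrays low in Hoxb13 the calls of Nupr1 (-0.83), Tmbim6 (-0.54), Eif2ak4 (-0.57) and Gdf15 (1.32) against OVX females were lost. Dixon's ratio, the gap of the end value over the range, flagged no array in any of 78 sets of 4 values checked. The sets cover the members and the 3 pathway genes called in a diet comparison. With 4 values only an extreme array can pass this test, so arrays can still stand apart unflagged. Sdf2l1 in M + LFD, at 11.03 with 9.96 next, is such a case.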

How the results depend on the processing

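The count of called members stayed 0 in every comparison but males minus OVX females, where it stayed 1, with other scaling, normexp, no filter, the replicate block and the covariate, and 0 with the methods' t-test, run for the diet comparisons within classes. It moved when arrays were left out, to 1 in males (range 0 to 1), to between 0 and 1 in males minus females and OVX females minus females, and to 2 in males minus females without both M + LFD arrays low in Hoxb13. No member was called with or without the replicate block in the diet comparisons. The labels do not say that the numbers pair samples, and errors and p-values given above without the block ignore them. In females, where same-numbered deviations correlated at 0.22 to 0.51, the block cannot move a difference (Herpud1 -0.10 in both fits), only its error. In males and OVX females not every such correlation was above 0.1. With the block the genes called went from 882 to 960 in males and 421 to 555 in OVX females. In the differences of males and of OVX females from females they went from 661 to 1150 and 340 to 548. Uncalled differences of -0.23 to 0.21 changed sign, among them the lowest of males (Dnajb9, -0.23) and of females (Hsp90b1, -0.23). With 75th percentile scaling these were Atf4 (0.04) and Hsp90b1 (0.07) in males. In females that scaling turned Hspa5 (0.19), Atf4 (0.08), Xbp1 (0.09), Ern2 (0.23), Hsp90b1 (0.01) and Herpud1 (0.03). Normexp turned Hspa5 in males (-0.06). The covariate turned Hspa5 (-0.17) and Sdf2l1 (-0.13) in males and Sdf2l1 in females (-0.10). Without both arrays low in Hoxb13, Hspa5 (-0.30), Atf4 (0.01), Ern2 (-0.02), Dnajb9 (0.01) and Sdf2l1 (-0.23) turned in males. Leaving out single arrays gave, in males, Hspa5 -0.29 to 0.33, Xbp1 -0.08 to 0.33, Ern1 -0.23 to 0.14, Hsp90b1 -0.15 to 0.25 and Sdf2l1 -0.23 to 0.40, in females Hspa5 -0.17 to 0.16, Ddit3 -0.21 to 0.04, Ern2 -0.19 to 0.09 and Dnajb9 -0.29 to 0.06, and in OVX females Ddit3 -0.21 to 0.04 and Sdf2l1 -0.14 to 0.51. The cause was not tested. Over these settings, arrays left out aside, the genes called ran from 489 to 1217 in males, 80 to 627 in females, 209 to 843 in OVX females, 54 to 478 on average, 474 to 1150, 151 to 827 and 1172 to 1853 for the differences (males minus females, OVX females minus females, males minus OVX females), and 495 to 2309 and 115 to 1054 for males and OVX females against females.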
